A study of Mus musculus with 21 samples.

Results

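The regions described here are all differentially methylated regions (DMRs) of mouse chromosome 18, the chromosome that carries Apc. Members were chosen by chromosome alone from the merged DMRs of the study. This gave 521 of 13980 DMRs, of which 199 were listed as hypermethylated and 322 as hypomethylated in adenoma, and the 13383 DMRs of the other 18 autosomes served as reference. A DMR is a window of the genome, or several overlapping ones merged, that had been listed for a difference in signal between adenoma and normal intestine.

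DNA methylation was measured in the ileum of male mice of the C57BL/6J (B6) strain aged 15 to 19 weeks by MeDIP-seq, in which an antibody pulls down methylated DNA before sequencing. Normal intestine came from 3 wildtype B6 mice (B1 to B3) and 3 APCMin mice (N4 to N6), and 5 adenomas came from APCMin mice (Ad4, Ad4-1, Ad5, Ad6 and Ad7). APCMin mice carry the Min allele of Apc, a germline mutation that truncates the protein, in every cell, so that their normal intestine carries it too. N4, N5 and N6 are matched by adenomas of the same animals, Ad4 and Ad4-1 being separate adenomas of animal 4, while Ad7 has no matched normal sample. Input DNA, which was sequenced without the antibody, was available for B3, N4 and Ad7. Signal is given in rpm, the mean coverage by sequenced fragments scaled to the uniquely aligned reads of the library (reads per 1000000). The tissue is a mixture of cells, so a change in the share of cells that carry methylation cannot be told apart from a change of methylation within a cell type, and reads from the Min and the wildtype allele are counted together.

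Apc is the scaffold of the complex that marks beta-catenin for degradation and thereby restrains Wnt signalling. In APCMin mice an adenoma starts when the remaining wildtype allele is lost or inactivated in an intestinal cell, and recombination along chromosome 18 is a known route of that loss. Chromosome 18 also carries Smad7, Smad4 and Smad2 of the TGF-beta pathway, the colon tumour gene Dcc and the clustered protocadherins, a tandem array of cell adhesion genes. Methylation of CpG sites at promoters and CpG islands is commonly associated with silencing, whereas methylation is usual in gene bodies and between genes.

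The mean signal over the 199 hypermethylated DMRs of chromosome 18 was 0.316, 0.336 and 0.335 rpm in B1, B2 and B3. It was 0.316, 0.301 and 0.334 rpm in N4, N5 and N6, and 0.486, 0.498, 0.501, 0.498 and 0.522 rpm in Ad4, Ad4-1, Ad5, Ad6 and Ad7. All 5 adenomas lay above all 6 normal samples, with group means of 0.501 ± 0.0132 rpm (SD, n = 5) and 0.323 ± 0.0144 rpm (SD, n = 6). The 5 adenomas come from 4 animals. Over the 322 hypomethylated DMRs the signal was 0.501, 0.483 and 0.513 rpm in B1 to B3 and 0.478, 0.491 and 0.473 rpm in N4 to N6. The adenomas reached 0.306 rpm in Ad4, 0.274 in Ad4-1, 0.294 in Ad5, 0.311 in Ad6 and 0.295 in Ad7, so that the groups did not overlap here either. The DMRs had been listed on this contrast in the same samples, and the differences are therefore a description without a test.

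**Figure D1:**
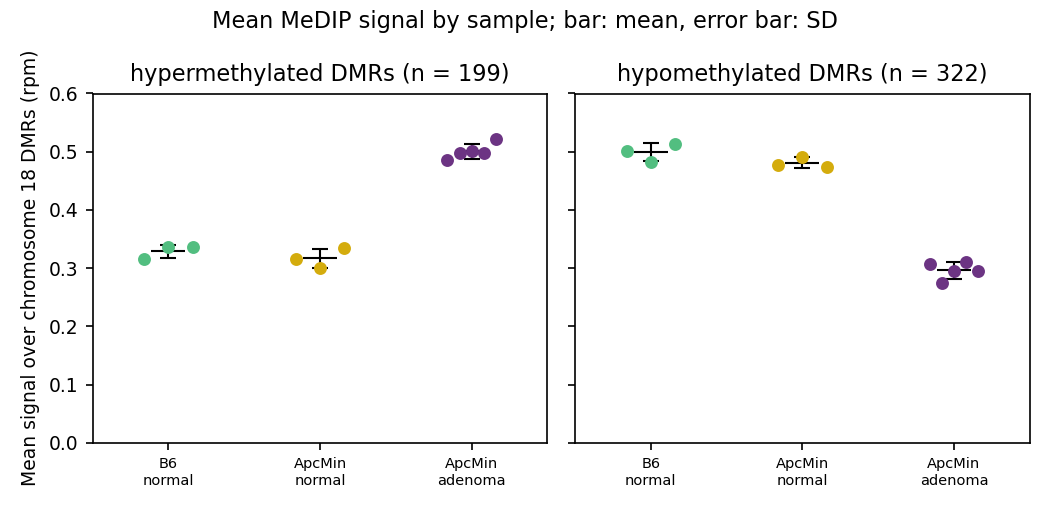
Mean MeDIP signal in rpm over the 199 hypermethylated (left) and 322 hypomethylated (right) DMRs of chromosome 18 in each of the 11 samples, with dots for samples and bars for group mean and SD. The 5 adenomas lie between 0.486 and 0.522 rpm on the left, above every normal sample, and between 0.274 and 0.311 rpm on the right, below every normal sample.

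DMR by DMR, complete separation was less frequent. At 93 of 199 hypermethylated DMRs (46.7%) every adenoma lay above every normal sample, where the share over all hypermethylated DMRs of the series was 44.5%. At 167 of 322 hypomethylated DMRs (51.9%) every adenoma lay below every normal sample, and the share over the series was 51.9%. Both counts were thus close to the background. When each adenoma of animals 4, 5 and 6 was set against the normal sample of its own animal, 180 hypermethylated DMRs (all DMRs of the series, 90%) and 294 hypomethylated DMRs (series, 91.2%) had every one of these adenomas on the listed side. This paired count uses fewer samples than complete separation and is larger for that reason as well.

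Relative to the other autosomes, chromosome 18 took a middle position. The mean log2 difference between adenoma and normal samples, after adding 0.05 rpm, was 0.60 over its hypermethylated DMRs, which was 0.00047 above the value over the other 18 autosomes and the 8th highest of 19. Over the hypomethylated DMRs it was -0.69, which was -0.0088 relative to the other autosomes and the 5th lowest of 19. The relative difference ran from -0.01 on chromosome 8 to 0.02 on chromosome 11 for hypermethylated DMRs, and from -0.03 on chromosome 19 to 0.01 on chromosome 5 for hypomethylated ones. By adenoma the relative value of the hypermethylated DMRs was between -0.02 in Ad4 and 0.02 in Ad6, and that of the hypomethylated DMRs between -0.04 in Ad4-1 and 0.01 in Ad6, each against the mean of the normal samples. The SD of the relative level was 0.02 on the log2 scale in adenomas and in normal samples, in either direction, and both mean relative differences were smaller than that. With the 67 hypermethylated DMRs of at least 0.5 rpm alone the value was -0.028, of the opposite sign. In size it is larger than the SD above, but that SD is over all hypermethylated members, and the SD for these 67 is not given. With the animal as a block the hypomethylated value was 0.0053, also of the opposite sign.

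**Figure D2:**
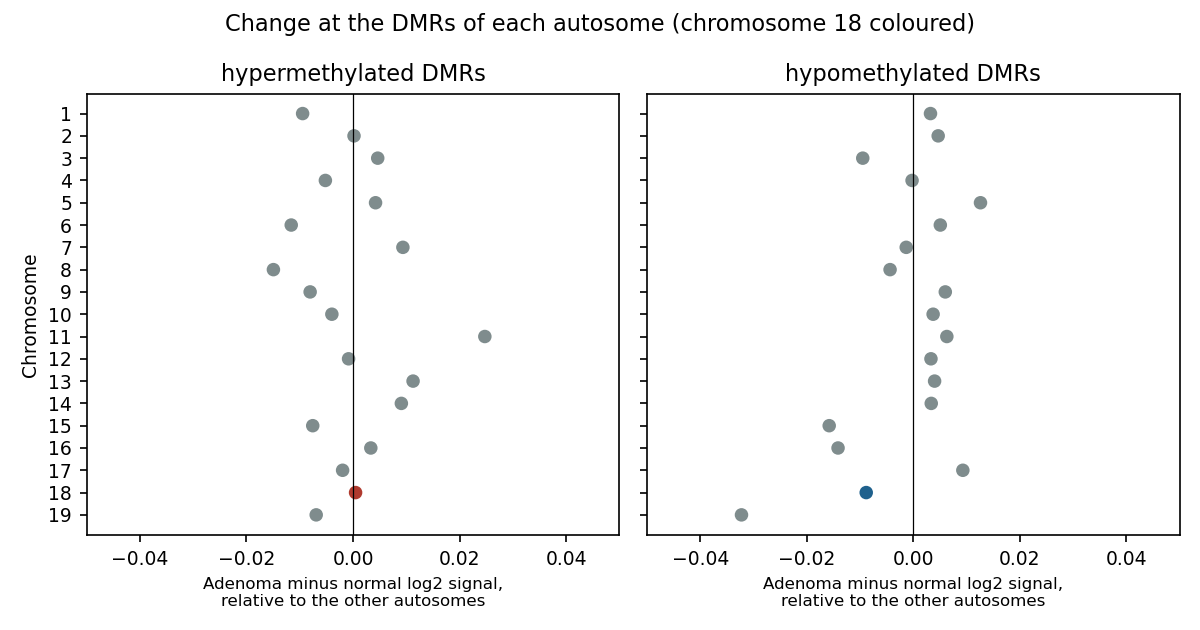
Difference in mean log2 signal between 5 adenomas and 6 normal samples at the DMRs of each autosome, minus the same over the other 18 autosomes, for hypermethylated (left) and hypomethylated DMRs (right). Chromosome 18, in colour, lies at 0.00047 and -0.0088, within the range of the other autosomes in both panels.

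The level of signal itself was slightly higher on chromosome 18 than elsewhere. At hypermethylated DMRs it exceeded the other autosomes in all 11 samples, by 0.04 to 0.09 on the log2 scale, and the mean excess of 0.07 was the 3rd highest of 19 autosomes. At hypomethylated DMRs the excess lay between -0.01 in Ad4-1 and 0.04 in N5. Adenoma and normal samples overlapped in both relative levels.

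The adenomas differed in how often each held the most extreme value. Ad7 had the highest signal at 57 of 199 hypermethylated DMRs (28.6%), against 31 to 33 for each of the other adenomas, and 14 DMRs were tied. The lowest signal at hypomethylated DMRs was in Ad4-1 at 83 of 322 (25.8%) and in Ad7 at 76 (23.6%), whereas Ad4, the other adenoma of the same animal as Ad4-1, held it at 36 (11.2%). On the other autosomes the shares were 26.0% for Ad7 at hypermethylated DMRs, and 24.5%, 20.2% and 14.1% for Ad4-1, Ad7 and Ad4 at hypomethylated DMRs, so the adenomas that led on chromosome 18 led on the other autosomes as well. Ad7 and Ad4-1 also had the fewest uniquely aligned reads among the adenomas, 13878615 and 17315974, against 20739752 in Ad4. A shallower library has a larger counting error, and the part of depth in these counts was not tested.

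With a length of 90.8 Mb and 722539 CpG sites, chromosome 18 carried 5.74 DMRs per Mb, compared with 5.62 on the other autosomes. The ratio of 1.02 had an exact Poisson interval of 0.936 to 1.11, which covers counting error only. Chromosome lengths, here and below, include unsequenced bases. Per 1000 CpG sites the values were 0.721 and 0.681. The share of hypermethylated DMRs was 38.2% (exact binomial 95% interval 34.0 to 42.5), the fourth highest of 19 autosomes, and the other autosomes together had 36.6%.

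DMRs were spread unevenly along the chromosome. The stretch from 70 to 80 Mb held the most, with 30 hypermethylated and 76 hypomethylated DMRs, or 1.10 per 1000 CpG sites, and the neighbouring stretch from 60 to 70 Mb held 37 and 62. Leaving out the last 0.8 Mb, which held 1 DMR, the first 10 Mb had the fewest with 11 and 9. That stretch also had the fewest CpG sites of the full stretches, 48005, or 0.417 DMRs per 1000 sites. Per CpG site the stretch from 40 to 50 Mb was the sparsest full stretch with 0.376 DMRs per 1000 sites, and it held only 5 hypermethylated DMRs against 22 hypomethylated ones. Hypermethylated DMRs made up 56.4% of the DMRs from 20 to 30 Mb, 50% from 30 to 40 Mb, which contains Apc and the protocadherins, and 28.3% from 70 to 80 Mb, which contains Smad7 and Zbtb7c. The size of the difference varied little along the chromosome. Every member had been listed under the same limit on the ratio, which narrows the range of such medians, and the hypermethylated median from 40 to 50 Mb rests on 5 DMRs. The median log2 ratio by 10 Mb stretch was between 0.48 and 0.58 for hypermethylated DMRs and, among the full stretches, between -0.70 and -0.58 for hypomethylated DMRs.

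Neighbouring DMRs were separated by a median of 66875 bp, the 10th longest of 19 autosomes. Of 520 gaps, 56 (10.8%) were at most 5 kb long, which was the highest share of 19 autosomes, the others ranging from 5.31% to 10.1%. Among these close neighbours 45 pairs had the same direction and 11 (19.6%) opposite directions, and the share of opposite pairs on the other autosomes ran from 15.7% to 38.9%. No test of these ranks was made.

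**Figure D3:**
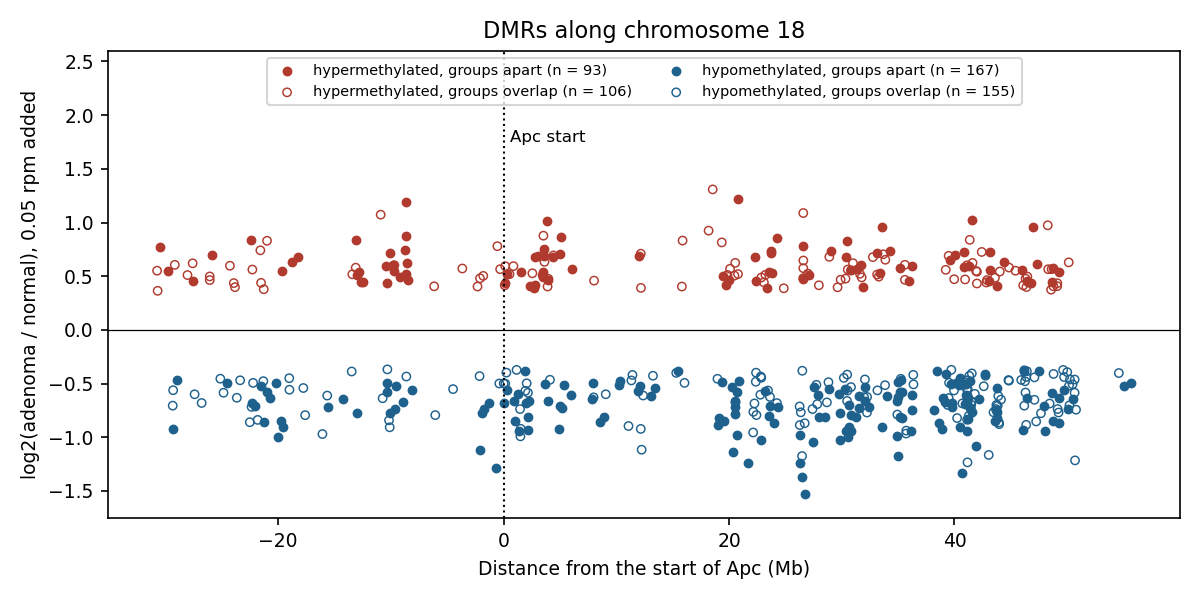
Log2 ratio of the adenoma to the normal mean (0.05 rpm added) for the 521 DMRs of chromosome 18 by distance from the start of Apc in Mb. Filled dots mark the 93 hypermethylated and 167 hypomethylated DMRs at which adenoma and normal samples did not overlap, open dots those at which they did. DMRs of both directions lie on both sides of Apc and are densest on its right, between positions 60 and 80 Mb of the chromosome.

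Few DMRs of chromosome 18 lay at promoters. A promoter, from 1000 bp upstream to 500 bp downstream of a transcript start, was touched by 9 of 199 hypermethylated DMRs (4.52%, exact binomial 95% interval 2.09 to 8.41) and by 10 of 322 hypomethylated DMRs (3.11%, 1.50 to 5.64). The other autosomes had 9.79% and 6.10%, and chromosome 18 had the lowest hypermethylated share of 19. Its 5.70 coding genes per Mb were also the lowest of 19 autosomes, the others having 5.81 to 13.6, and the part of gene density in the promoter share was not tested. Exons held 38 hypermethylated (19.1%) and 35 hypomethylated DMRs (10.9%), and the space between genes 82 (41.2%) and 150 (46.6%).

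Most members were short and poor in CpG sites. A single window of 500 bp made up 165 of the hypermethylated and 231 of the hypomethylated DMRs, the longest of either direction measured 1250 bp, and the median was 8 CpG sites in both directions. A composition like that of a CpG island, here defined by a GC content of 50% or more and CpG sites at 0.6 or more of the number expected from the base content, was found in 9 hypermethylated DMRs (4.52%) and 1 hypomethylated DMR (0.311%), against 2.92% and 0.283% on the other autosomes. Of the 9, 5 lay in the protocadherin clusters. The others were in Celf4 and Zbtb7c and between genes nearest to Dtna and Zfp516. The region nearest to Dtna (chr18:23469001-23469750) had 68 CpG sites, the most of any member, and a log2 ratio of 1.07. The island-like hypomethylated DMR lay outside genes nearest to Tcf4 (chr18:69357501-69358000), with a log2 ratio of -1.17.

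Apc itself, on the plus strand at chr18:34380578-34481843 of mm9 (ENSMUSG00000005871), held 3 DMRs, 1 hypermethylated and 2 hypomethylated, and none touched its promoter. The first hypomethylated DMR (chr18:34383501-34384000) began 2.92 kb into the gene in an intron and contained 9 CpG sites. Its signal was 0.45, 0.64 and 0.44 rpm in B1 to B3, 0.48, 0.38 and 0.48 in N4 to N6, and 0.38, 0.37, 0.31, 0.36 and 0.20 in the adenomas in the order Ad4, Ad4-1, Ad5, Ad6 and Ad7. The adenoma Ad4 and the normal sample N5 had the same value, so the groups touched. Group means were 0.478 ± 0.0873 rpm (SD, n = 6) in normal intestine and 0.324 ± 0.0744 rpm (SD, n = 5) in adenoma, and the log2 ratio was -0.50.

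The second hypomethylated DMR of Apc (chr18:34388251-34388750), 7.67 kb into the gene and also intronic, was the only one of the 3 in which the groups were apart. B1 to B3 gave 0.36, 0.22 and 0.22 rpm, N4 to N6 gave 0.22, 0.24 and 0.33 rpm, and the adenomas gave 0.10, 0.19, 0.17, 0.06 and 0.21 rpm. The log2 ratio was -0.68, and the gap between the highest adenoma (Ad7) and the lowest normal sample was no more than the step of 0.01 rpm in which the values were deposited. The hypermethylated DMR (chr18:34475751-34476250), 95.2 kb into the gene and overlapping an exon, carried more signal. It had 0.82, 0.88 and 0.74 rpm in B1 to B3, 0.98, 0.84 and 0.83 in N4 to N6, and 1.32, 1.17, 0.89, 1.21 and 1.15 in the adenomas. Ad5 lay below N4, whereas the other 4 adenomas were above all normal samples, and the log2 ratio was 0.42.

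Within 1 Mb of Apc there were 17 DMRs, its own included, 8 hypermethylated and 9 hypomethylated. The groups were apart at 7 of them, where the shares over all DMRs of the series were 44.5% of hypermethylated and 51.9% of hypomethylated ones. The median log2 ratios were 0.55 and -0.56, where all DMRs of the other autosomes had 0.55 and -0.64. The nearest DMRs after the gene were 3 in Reep5, which codes for a protein that shapes the endoplasmic reticulum. Of these, 2 were hypermethylated with log2 ratios of 0.43 and 0.59 and 1 was hypomethylated with -0.50, and the first of them (chr18:34514751-34515250) was among the stronger signals of the region with 0.75 to 1.15 rpm in normal samples and 1.19 to 1.66 rpm in adenomas. Before the gene no DMR lay closer than 310 kb, where Epb4.1l4a, a FERM domain gene, held 1 hypermethylated and 1 hypomethylated DMR.

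The largest ratio near Apc was that of an intergenic hypomethylated DMR 0.68 Mb before it (chr18:33704001-33704750). Its adenoma values of 0.04, 0.09, 0.13, 0.13 and 0.12 rpm were below all normal values, which ran from 0.17 in N6 to 0.48 in B3, and the log2 ratio was -1.28. Wnt8a, coding for a Wnt ligand, had a hypomethylated DMR 4.32 kb outside the gene (log2 ratio -0.56, groups apart), and Cdc25c, coding for a mitotic phosphatase, had a hypermethylated DMR over an exon (0.52, groups overlapping). Ctnna1, which codes for alpha-catenin, the link between cadherins and actin, held an intronic hypomethylated DMR with 0.27 to 0.44 rpm in normal samples and 0.16 to 0.21 rpm in adenomas (log2 ratio -0.85).

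Of 515 coding genes of chromosome 18, 142 (27.6%) held at least 1 DMR, 44 of them only hypermethylated, 69 only hypomethylated and 29 both. From a list of 18 genes of the Wnt and TGF-beta pathways and colon tumours, 10 (55.6%) held a DMR, with 8 hypermethylated and 25 hypomethylated DMRs in all. The median log2 ratios of these were 0.56 and -0.64, close to the medians of 0.55 and -0.65 over the chromosome, and the groups were apart at 4 and 18 of them, where the shares over all DMRs of the series were 44.5% and 51.9%. Dcc, Smad2, Smad4, Bambi, Cdx1, Apcdd1, Csnk1a1 and Cxxc5 held none. The list counts Tcf4, although this gene is not the Wnt effector Tcf7l2 that shares the alias. Tcf4 supplied 1 of the hypermethylated and 6 of the hypomethylated DMRs of the list, with the groups apart at 6 of its 7. The median gene length was 96.6 kb in the list and 25.1 kb over all coding genes of the chromosome, and the number of DMRs per gene was not adjusted for it.

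Smad7, which codes for the inhibitory Smad of the TGF-beta pathway, held 6 DMRs within its 28.4 kb, all hypomethylated. The mean over the 6 was 0.648, 0.703 and 0.668 rpm in B1 to B3, 0.592, 0.530 and 0.618 rpm in N4 to N6, and 0.390, 0.380, 0.407, 0.370 and 0.328 rpm in the adenomas in the order given above. The groups did not overlap in this mean, and they were apart at 3 of the 6 DMRs (all hypomethylated DMRs of the series, 51.9%). One of these (chr18:75534251-75535000) touched an exon and the promoter of a transcript that starts within the gene. The gene itself starts at position 75527183, and its promoter there was not touched by this DMR. Signal at the DMR was 0.35 to 0.58 rpm in normal intestine and 0.20 to 0.31 rpm in adenoma (log2 ratio -0.66). The largest ratio in the gene was -1.23 (chr18:75537251-75537750), with values of 0.07 to 0.19 rpm in adenoma, where Ad4 equalled the normal sample B3. The strongest signal was at an exon at the 3' end (chr18:75554001-75554500), with 1.36 to 1.96 rpm in normal samples and 1.04 to 1.08 rpm in 4 adenomas, while Ad5 had 1.40 rpm.

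Tcf4 codes for a basic helix-loop-helix factor and is not the Wnt effector Tcf7l2 that is known by the same alias. It held 6 hypomethylated DMRs and 1 hypermethylated DMR, all in introns, and the groups were apart at 6 of the 7 (series, 51.9% and 44.5%). The longest hypomethylated DMR of the chromosome lay here (chr18:69555501-69556750, 1250 bp and 22 CpG sites). Its values were 0.78, 0.75 and 0.77 rpm in B1 to B3, 0.67, 0.73 and 0.66 rpm in N4 to N6, and 0.53, 0.37, 0.38, 0.33 and 0.36 rpm in the adenomas, giving a log2 ratio of -0.81. The hypermethylated DMR (chr18:69566001-69567000) began less than 10 kb further on, with 0.25 to 0.43 rpm in normal samples and 0.49 to 0.51 rpm in 4 adenomas, while Ad4-1 had 0.72 rpm.

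Nedd4l, coding for a ubiquitin ligase that acts on Smads and epithelial sodium channels, held 5 hypomethylated and 3 hypermethylated DMRs. The largest ratio was at a promoter and exon within the gene (chr18:65210501-65211500, 19 CpG sites), with 0.80, 0.62 and 0.73 rpm in B1 to B3, 0.56, 0.89 and 0.56 rpm in N4 to N6, and 0.46, 0.20, 0.25, 0.40 and 0.37 rpm in the adenomas. All adenomas were below all normal samples, and the log2 ratio was -0.95. Of the other members of the list, Mcc, a colon tumour gene, held 2 hypomethylated DMRs (-0.51 and -0.47), Ppp2r2b, a regulatory subunit of protein phosphatase 2A, held 1 (-0.85) and Mapre2, which codes for a microtubule end protein of the family that binds Apc, held 2 hypermethylated DMRs (0.59 and 0.44). The groups were apart at all 5 (series, 44.5% of hypermethylated and 51.9% of hypomethylated DMRs). They were also apart at the hypomethylated DMR of Diap1 and at that of Ctnna1, but overlapped at both DMRs of Epb4.1l4a, which is on the list as well.

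The clustered protocadherins held hypermethylated DMRs alone. Their 0.912 Mb (chr18:37089939-38001527) held 11 DMRs, all hypermethylated, where the share over the chromosome was 38.2%. The groups were apart at 8 of them (all hypermethylated DMRs of the series, 44.5%). Several of the 11 were close neighbours, lying between positions 37906501 and 37916500. The annotation used here places many variable exons of the alpha and gamma clusters under the gene models Pcdha11 and Pcdhgc5, so the 11 DMRs were spread over 3 gene names of 24, with 3 in Pcdha11, 1 in Pcdhb1 and 7 in Pcdhgc5. The mean over the 11 was 0.593, 0.653 and 0.591 rpm in B1 to B3, 0.551, 0.507 and 0.575 rpm in N4 to N6, and 0.914, 0.848, 0.862, 0.903 and 0.885 rpm in the adenomas. All 5 adenomas lay above all normal samples, with 0.882 ± 0.0274 rpm (SD, n = 5) against 0.578 ± 0.0484 rpm (SD, n = 6).

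Unlike most members, the protocadherin DMRs were rich in CpG sites, with 12 to 49 each and a median of 22. Of the 11, 9 overlapped an exon and 4 a promoter. The region with the most CpG sites (chr18:37927501-37928500) had 1.23, 1.28 and 1.14 rpm in B1 to B3, 0.96, 0.64 and 1.01 rpm in N4 to N6, and 1.79, 1.55, 1.95, 1.76 and 1.51 rpm in the adenomas. The lowest adenoma (Ad7) was above the highest normal sample (B2), and the log2 ratio was 0.69. The region with the highest signal (chr18:37915751-37916500) had 1.16 to 1.39 rpm in normal samples and 1.64 to 2.18 rpm in adenomas (0.54). Log2 ratios over the 11 were 0.39 to 0.88, where the median of all hypermethylated DMRs of the chromosome was 0.55.

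Of the 37 genes of the cell adhesion list, which includes these clusters, 6 (16.2%, against 27.6% of all coding genes) held a DMR, 13 hypermethylated and 3 hypomethylated in all, and the 9 desmosomal cadherin genes held none. The median log2 ratio was 0.51 over the 13 hypermethylated DMRs, of which 9 had the groups apart, and -0.79 over the 3 hypomethylated ones, of which 2 did (series, 44.5% and 51.9%). Genes of this list were short, with a median of 4.66 kb against 25.1 kb over all coding genes, and the share was not adjusted for length. Pcdh1, a protocadherin outside the clusters, carried both directions. Its hypomethylated DMR (chr18:38358501-38359500, 43 CpG sites, over an exon) had the highest normal signal of those named, with 2.30, 2.73 and 2.66 rpm in B1 to B3, 1.87, 1.98 and 2.48 rpm in N4 to N6, and 1.59, 0.94, 1.65, 1.60 and 1.51 rpm in the adenomas. The groups were apart and the log2 ratio was -0.66. The 2 hypermethylated DMRs of Pcdh1, over exons less than 10 kb away, had log2 ratios of 0.47 and 0.48. Cdh2, which codes for N-cadherin, held 1 hypomethylated DMR (-0.79) in which Ad4-1 equalled B2 and N6.

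**Figure D4:**
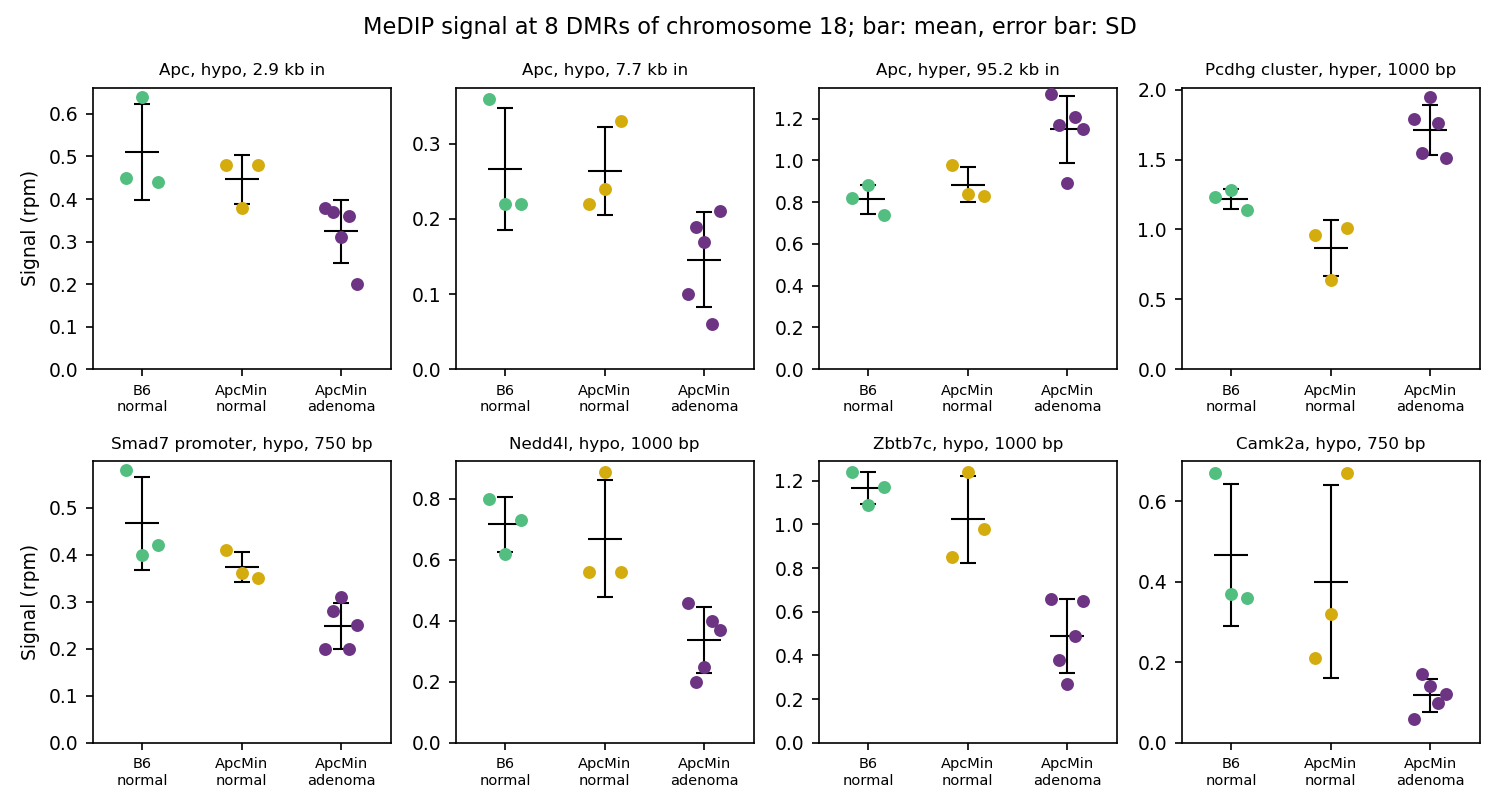
MeDIP signal in rpm at 8 DMRs of chromosome 18, 3 of them in Apc, with dots for the 11 samples and bars for group mean and SD; titles give the gene, the direction, and the distance into Apc or the length. The groups are apart in all panels except the first of Apc, where Ad4 is level with N5, and the hypermethylated DMR of Apc, where Ad5 is below N4. The protocadherin, Nedd4l, Zbtb7c and Camk2a panels were chosen among DMRs with the groups apart, so their separation was set by that choice. The Smad7 promoter is that of a transcript that starts within the gene.

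Among 21 developmental transcription factors and chromatin genes, 8 (38.1%, against 27.6% of all coding genes) held a DMR, with 9 hypermethylated and 16 hypomethylated DMRs in all. The median gene length was 74.9 kb in this list and 25.1 kb over all coding genes of the chromosome, and the shares were not adjusted for it. The median log2 ratios were 0.58 and -0.50, and the groups were apart at 4 and 8 DMRs (series, 44.5% and 51.9%). Zbtb7c, which codes for a zinc finger repressor, held 3 hypermethylated and 2 hypomethylated DMRs. Near its start a hypermethylated DMR with 36 CpG sites (chr18:75980751-75981500) had 0.03 to 0.22 rpm in normal samples and 0.27 to 0.39 rpm in adenomas (log2 ratio 1.02). Far into the gene the signal went the other way (chr18:76272501-76273500), with 1.24, 1.09 and 1.17 rpm in B1 to B3, 0.85, 1.24 and 0.98 rpm in N4 to N6, and 0.66, 0.38, 0.27, 0.49 and 0.65 rpm in the adenomas (-1.08). Both had the groups apart. Setbp1, Nfatc1, Zfp516 and Tcf4 also held both directions, while Mbd2, Prdm6 and Skor2 held 1 hypomethylated DMR each.

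Of 12 growth factor and kinase signalling genes, 4 (33.3%, against 27.6% of all coding genes) held 3 hypermethylated and 4 hypomethylated DMRs. Their median log2 ratios were 0.50 and -0.64, and the groups were apart at 1 and 1 of them (series, 44.5% and 51.9%). Here too the share of genes was not adjusted for gene length, with a median of 55.2 kb in the list and 25.1 kb over all coding genes. The single hypomethylated DMR with the groups apart was intronic in Camk2a, which codes for a calcium and calmodulin dependent kinase (chr18:61104501-61105250), and its log2 ratio of -1.52 was the largest loss on the chromosome. The values were 0.67, 0.37 and 0.36 rpm in B1 to B3, 0.21, 0.32 and 0.67 rpm in N4 to N6, and 0.06, 0.17, 0.14, 0.10 and 0.12 rpm in the adenomas. Normal samples thus spread widely, while no adenoma reached the lowest of them. Socs6, a suppressor of cytokine signalling, had a hypomethylated DMR with a log2 ratio of -0.40 and overlapping groups.

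When members had to have the groups apart and at least 0.5 rpm in the higher group, 33 hypermethylated DMRs (14.7% of those of the series passed, 16.6% here) and 63 hypomethylated DMRs (18.6% in the series, 19.6% here) remained. A ratio over 2 as well as separation was found at 10 hypermethylated (5.03%, all DMRs 4.42%) and 40 hypomethylated members (12.4%, all DMRs 11.6%). The 10 with the largest ratios at this signal had log2 ratios of 0.62 to 0.82 among hypermethylated DMRs. They comprised an intergenic region 21.3 kb from Atp8b1, a phospholipid flippase gene (chr18:64842001-64842500), with 0.82, where normal samples ranged from 0.11 to 0.51 rpm and adenomas from 0.53 to 0.84 rpm. The others were at Celf4, St8sia5, Dym and Pcdhb1, at 2 regions of the gamma protocadherins, and between genes nearest to Mc2r, Gm6133 and Sall3. Among hypomethylated DMRs the 10 had log2 ratios of -1.08 to -0.85 and lay at Zbtb7c, Zfp608, Nedd4l with 2, 0610010O12Rik, Arhgap26, Ss18, Snx2 and Ppp2r2b and in a region without genes nearest to Dcc, at a distance of 511 kb. Of the hypermethylated 10, 5 overlapped an exon, and of the hypomethylated 10, 2 did.

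Some other genes held several DMRs and are named here after their values had been seen. Celf4, coding for an RNA-binding splicing regulator of neurons, held 6 hypermethylated DMRs, the groups being apart at all 6, and 1 hypomethylated DMR. The mean over the 6 was 0.173 to 0.298 rpm in normal samples and 0.367 to 0.445 rpm in adenomas. Cd74, which codes for the invariant chain of MHC class II and is expressed in antigen-presenting cells, held 4 hypermethylated DMRs within 8.80 kb, with a mean of 0.358 to 0.500 rpm in normal samples and 0.578 to 0.830 rpm in adenomas, although the groups were apart at 1 of the 4. Dym held 5 hypomethylated and 3 hypermethylated DMRs. Myo5b, an epithelial myosin motor of vesicle transport, held 4 hypomethylated DMRs (log2 ratios of -0.90 to -0.45, groups apart at 3). Zfp608 held both directions with large ratios, 1.22 at a hypermethylated and -0.98 at a hypomethylated DMR, and the groups were apart at all 3 of its DMRs. Over all DMRs of the series the groups were apart at 44.5% of hypermethylated and 51.9% of hypomethylated ones.

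The median SD of the log2 signal over the 5 adenomas was 0.28 at hypomethylated and 0.21 at hypermethylated members, where the median adenoma signal was 0.249 and 0.426 rpm. The largest SD was 0.98, at an intergenic hypomethylated DMR nearest to Seh1l (chr18:67909501-67910000), where Ad7 had 0.00 rpm, Ad4-1 0.07 rpm and Ad6 0.21 rpm. At such levels 1 sequenced fragment shifts the log2 value markedly. Among hypermethylated DMRs the largest was 0.55, at Mbp, a myelin protein gene, with 0.15 rpm in Ad4 and 0.48 rpm in Ad7. The MeDIP libraries held between 13878615 and 26297510 uniquely aligned reads, and at 0.5 rpm in a 500 bp window counting alone gives a relative SD of 21.4% to 29.4% in a sample.

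Normal intestine of APCMin mice was set against that of B6 mice at the same DMRs. Both had been pooled as normal samples when the DMRs were listed, which disfavoured regions where they differ, so the counts hold for listed DMRs alone. With limma on log2 signal of all 11 samples and Benjamini-Hochberg adjustment over the 13980 DMRs, 0 of 521 members passed an adjusted p of 0.05, and 0% passed in the whole series. The library codes of B1, B2 and B3 begin with 4, 4 and 10, and those of N4, N5 and N6 with 4, 9 and 9. The model had no term for these codes or for samples of the same animal, so genotype and library code cannot be fully told apart. At an unadjusted p under 0.05 there were 18 members (3.45%), against 4.32% in the series, of which 6 (1.15%) were higher and 12 (2.30%) lower in APCMin mice, and the series had 1.39% higher and 2.93% lower. The lowest adjusted p on the chromosome was 0.999. Averaged over the members, APCMin minus B6 was -0.03 on the log2 scale at hypermethylated DMRs and -0.04 at hypomethylated DMRs. The other autosomes had medians of -0.025 and -0.027, with ranges of -0.037 to 0.0096 and -0.058 to -0.015, so chromosome 18 lay within both ranges. These averages rest on 3 samples a group, and no p-value is given for them. The DMR within the gamma protocadherins with the most CpG sites was lower in APCMin mice by 0.49, and its adjusted p by limma was also 0.999. At the 3 DMRs of Apc the difference was -0.16, -0.0022 and 0.11.

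Input DNA was compared next, since the number of copies of a chromosome affects MeDIP signal. Over the members, the length-weighted input signal of Ad7 divided by that of N4 was 0.914, from about 822 and 783 fragments, with a 95% counting interval of 0.828 to 1.01 (exact binomial, fragments of 300 bp). Chromosome 18 was the 3rd lowest of 19 autosomes, the range of the others being 0.904 on chromosome 15 to 1.05 on chromosome 12. Divided by the ratio over the other autosomes it was 0.946 (0.857 to 1.04), and with B3 in place of N4 it was 0.959 (0.862 to 1.07). Both intervals include 1, and a difference in copies within these intervals was not detectable at this depth.

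**Figure D5:**
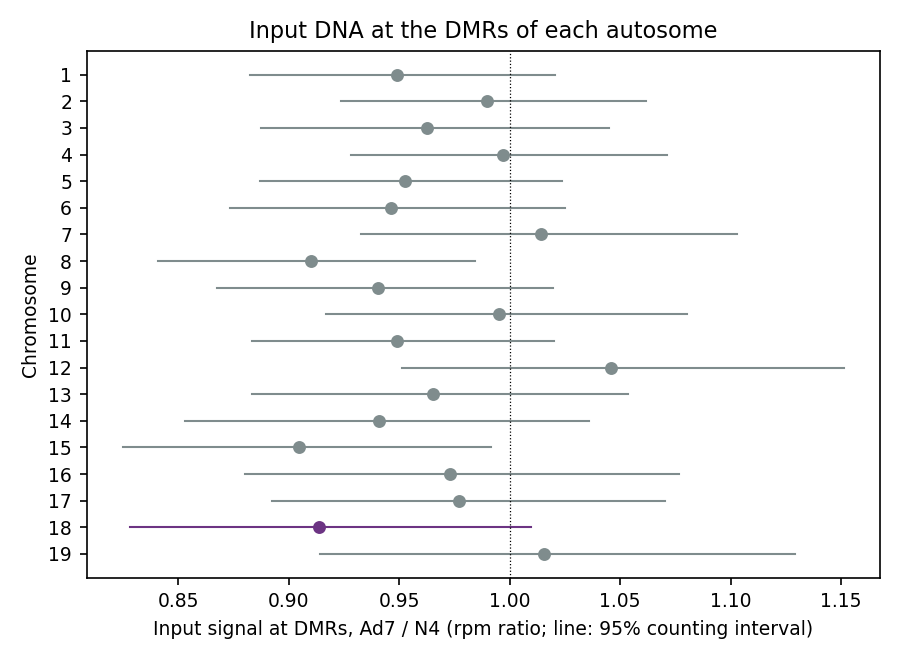
Ratio of input signal in rpm in Ad7 to that in N4, summed over the DMRs of each autosome with weights by length, with 95% counting intervals. Chromosome 18, in colour, has 0.914 (0.828 to 1.01) and lies within the range of the other autosomes.

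Along the chromosome the input ratio was 0.918 (0.691 to 1.21) from 30 to 40 Mb and 1.03 (0.561 to 1.91) over the 17 DMRs within 1 Mb of Apc, where it rested on 26 and 22 fragments. The lowest values were 0.692 (0.478 to 1.00) from 20 to 30 Mb and 0.718 (0.543 to 0.945) from 80 to 90 Mb, and the highest was 1.30 (0.852 to 2.02) from 10 to 20 Mb. The interval left out 1 in the stretch from 80 to 90 Mb alone of the 9 full stretches, without adjustment for their number. Only 1 adenoma had input, so these ratios compare libraries and do not describe the other 4 adenomas. Input signal was low throughout, with means of 0.177, 0.151 and 0.140 rpm in B3, N4 and Ad7 and no input signal at 132, 67 and 62 of the 521 members.

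The library codes in the sample titles begin with 1 of 4 numbers, which are called series here, although the labels do not say what they mark. In series 4 (B1, B2, N4, Ad4 and Ad4-1) the mean log2 difference of the members was 0.58 at hypermethylated and -0.71 at hypomethylated DMRs. Its groups were apart at 170 (over all DMRs, 87.5%) and 291 (over all DMRs, 89.7%) members, a count that has fewer samples to keep apart. In series 9 (N5, N6 and Ad5) it was 0.61 and -0.68, and in series 10 (B3 and Ad6) 0.54 and -0.65. Ad7 was the only MeDIP library whose code began with 2. Within animals the difference was 0.59 and 0.63 for Ad4 and Ad4-1, 0.67 for Ad5 and 0.54 for Ad6 at hypermethylated DMRs, and -0.62, -0.75, -0.70 and -0.56 at hypomethylated DMRs. The DMRs had been listed for this direction in the same samples, and these values describe the size of the difference alone.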

How the data were processed

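MeDIP-seq of 11 samples and input DNA of 3 of them was used. The 7 RNA samples were not analysed here. Per the authors' methods, single-end reads were aligned to mm9 with Bowtie 0.12.5, unique hits were kept, reads with the same start were counted 1 time, and reads were extended to 300 nt and averaged over 500 bp windows (step 250 bp). The deposited rpm values are this coverage scaled to 1000000 uniquely aligned reads, at 2 decimals. Windows listed by the authors' rank test, ratio and signal limits were merged into DMRs, and the rest of the genome was not analysed here. Deposited columns with the authors' group means, variances, ratios and p-values were not used, nor was a file that holds column descriptions only. The table of library totals given with the study supplied the depth, and per the methods the wildtype mice were littermates of the APCMin mice, without saying which animals share a litter. Series were read from the library codes in the sample titles.

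Here, log2 values were taken after adding 0.05 rpm. Groups were called apart when all adenomas lay beyond all normal samples. APCMin and B6 normal intestine were compared with limma 3.58.1 in R 4.3.3 (trend, 3 groups, all 11 samples, adjustment over 13980 DMRs), tested on simulated data. Genes came from gencode vM1 and CpG sites from the genome sequence of NCBIM37, the same build as mm9. No sequence of this chromosome is printed. Named DMRs were those in or within 1 Mb of Apc, the 10 largest ratios with the groups apart and at least 0.5 rpm, the 3 longest, the 3 with the largest SD among adenomas (each per direction), and every DMR in a listed gene. The members, lists and tests were chosen with earlier results of these data known. A gene list is described by counts and medians, without a test.

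Same-animal samples of animals 4, 5 and 6 are paired by the labels. The deviations from the group means over all DMRs correlated with r of -0.05 to 0.03 for the 4 pairs of the same animal and -0.03 to 0.07 for the 11 other pairs. Intervals cover counting error only.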

Additional observations from a re-analysis of the deposited data

Results flagged for a closer look

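Adenomas (5 samples) and normal samples (6) were each searched for a sample apart from the others, by its gap to the nearest sample divided by the whole range, at the 102 named DMRs and for the mean levels of the chromosome. Of 212 such groups 13 were beyond the 95% limit, where chance gives about 1 in 20. None concerned a mean level or a DMR in Apc.

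Ad4-1 was the sample apart in 4 of the 8 cases among adenomas. It was the lowest at the hypomethylated DMRs of Pcdh1 (0.94 rpm, gap 0.803 of the range) and Zfp516 (0.08 rpm, 0.875), and the highest at that of Ctnna1 (0.21 rpm, 0.800) and at the hypermethylated DMR of Tcf4 (0.72 rpm, 0.913). Ad5 was the highest at the hypermethylated DMR nearest to Atp8b1 (0.84 rpm, 0.742) and at the hypomethylated DMR at the 3' end of Smad7 (1.40 rpm, 0.889). Ad4 was the highest at the long hypomethylated DMR of Tcf4 (0.53 rpm, 0.750), and Ad7 at a hypermethylated DMR of Zbtb7c (1.29 rpm, 0.771).

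Among normal samples N4 was the lowest at hypermethylated DMRs of Nfatc1 (0.35 rpm, 0.636) and nearest to Sall3 (0.20 rpm, 0.655), and the highest at the hypomethylated DMR nearest to Seh1l (0.42 rpm, 0.800). N5 was the lowest at the hypermethylated DMR nearest to Fam13b (0.32 rpm, 0.679), and B1 the highest at the hypomethylated DMR at a promoter within Smad7 (0.58 rpm, 0.696).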

How the results depend on the processing

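Of 143 recomputed values 129 stayed within the spread of the samples, their counting interval or 1.5 times the count, and 14 moved. The mean log2 difference depends on the amount added before the logarithm: with 0.01 rpm it was 0.68 and -0.79 at hyper- and hypomethylated DMRs, with 0.5 rpm 0.28 and -0.31, and with DMRs of at least 0.5 rpm the hypermethylated value was 0.54 and its value relative to the other autosomes -0.028. The number of DMRs with the groups apart was 33 and 63 with at least 0.5 rpm, 10 and 40 with a ratio over 2, and 170 and 291 in series 4 alone, which has fewer samples to keep apart.

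Leaving out 1 sample gave log2 differences of 0.59 to 0.61 and -0.71 to -0.66, relative values of -0.0046 to 0.0055 and -0.01 to -0.0014, and counts of 99 to 121 and 178 to 204, which can only grow with fewer samples. APCMin minus B6 lay between -0.07 and -0.0077 at hypermethylated and between -0.06 and -0.03 at hypomethylated DMRs, with 0 called members in every setting; without N6, limma called 6 DMRs on other chromosomes, and with 0.5 rpm added 2.

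With the animal as a block, the log2 differences were 0.61 and -0.65 and the relative values 0.0054 and 0.0053, so that the small relative value of the hypomethylated DMRs changed sign, and the paired counts were 180 and 294.

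Depth limits the values of single DMRs, and input ratios rest on 1 adenoma.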
